A study of Mus musculus with 8 samples.

Results

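The 33 genes described here encode the enzymes of cholesterol synthesis, the proteins that control sterol regulatory element-binding proteins (SREBPs), and the proteins that move, export or store cholesterol. The list is by gene name and applies no cutoff on measured values, though it was drawn up with earlier results of these data known, and all 33 were found among the 55487 gene rows of the count tables. Of these genes, 32 passed the filter on low counts and were tested together with all 14360 genes that passed it. Messenger RNA was measured by bulk Smart-seq2, a full-length cDNA method, in sorted mouse hematopoietic stem cells (HSCs), the rare bone marrow cells that renew themselves and give rise to all blood lineages. The labels give 2 groups, with 4 libraries labelled NTC, an abbreviation that they do not expand, and 4 labelled miR652-KD. The groups differ in the labels only by this genotype entry; mouse strain, age, treatment, time, how the KD was made and whether the replicates came from separate animals are not given there. A p-value here is set against the library-to-library spread alone, part of which may be technical. The study's title concerns a pseudouridine synthase in ageing HSCs, and the comparison here asks how the sterol genes differed between miR652-KD and NTC libraries.

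Animal cells make cholesterol from acetyl-CoA through mevalonate, farnesyl diphosphate, squalene and lanosterol. When sterols in the endoplasmic reticulum are low, the escort protein Scap carries SREBPs to the Golgi, where a pair of proteases releases their transcriptionally active part, which binds promoters of synthesis genes. When sterols are high, Insig proteins hold Scap back, and oxysterol-activated liver X receptors (LXRs) induce export genes. In HSCs, cholesterol efflux through Abca1, Abcg1 and Apoe is known to restrain proliferation.

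The NTC libraries held between 14017632 and 16763709 counts assigned to genes, and the miR652-KD libraries between 14677644 and 19894821. The row of the Mir652 hairpin (chrX:142739000-142739097, mm10) held 3 counts over the NTC libraries and 5 over the miR652-KD libraries, and a library of cDNA from polyadenylated RNA does not measure mature miRNAs, so this row does not check the labels. All 12 HSC and progenitor markers were tested, and their summed level overlapped between groups (2401 to 2862 CPM in NTC and 2566 to 2712 in miR652-KD, where CPM is a count scaled to a common total of gene counts in every library). Single markers went both ways. At an unadjusted edgeR p below 0.05, 5 of the 12 (41.7%) were found, against 5.99% of all tested genes. These were Kit and Mecom, lower in miR652-KD, and Ly6a, Mllt3 and Hoxb5, higher. Of them, 3 did not overlap between groups: Kit (380 to 435 CPM in miR652-KD against 440 to 664 in NTC), Ly6a (316 to 490 against 240 to 296) and Mllt3 (192 to 321 against 123 to 192, apart only beyond the rounding). Over all tested genes, 2.35% did not overlap with miR652-KD higher and 2.15% with it lower. Of the 12 markers, 0 passed the adjusted threshold. Libraries did stand apart in RNA of neutrophil and erythroid markers. The 10 neutrophil markers summed to 9534 CPM in NTC 3 and 14834 in NTC 4 against 570 to 4908 in the other libraries. The 4908 in miR652-KD 1 was mostly Mpo (1979 CPM), Elane (1920) and Prtn3 (957), which are also expressed before neutrophils mature. S100a8 stood at 1547 and 1968 CPM in NTC 3 and NTC 4 and at 2.89 to 36.4 in the other libraries. The 11 erythroid markers summed to between 2382 and 5770 CPM in NTC and between 38.4 and 2337 in miR652-KD, with no overlap. In bulk libraries, fewer cells of a type and less RNA per cell cannot be told apart.

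None of the 32 tested sterol genes passed the threshold, an adjusted p below 0.05 in edgeR's quasi-likelihood test, and 0.0418% of all tested genes did. Their adjusted p-values lay between 0.764 and 0.999. At an unadjusted p below 0.05, 2 of the 32 (6.25%) were found, Mvd and Apoe, against 5.99% of all tested genes, so this share is close to the background. DESeq2, as another test, also called 0 of them, with 2 at an unadjusted p below 0.05, against 1522 of all 23457 genes it tested. The 4 miR652-KD libraries lay all above the 4 NTC libraries for 1 gene, Mvd (2.35% of all tested genes did so), and all below them for 0 genes (2.15% of all tested genes). The log2 difference, miR652-KD minus NTC, was above 0 for 22 of the 32 genes and below 0 for 10, while 49.5% of all tested genes were above 0. Its median was 0.10 over the 32 genes (quartiles -0.12 and 0.30) and -0.00 over all tested genes. The 95% interval of the difference was derived from the same test statistic as the p-value. That it spanned 0 for 30 of the 32 genes therefore restates the unadjusted p-values. For 20 genes (62.5%) the interval lay within a 2-fold difference either way, against 46.3% of all tested genes. A larger difference therefore remained within the interval for the other 12 genes.

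**Figure D1:**
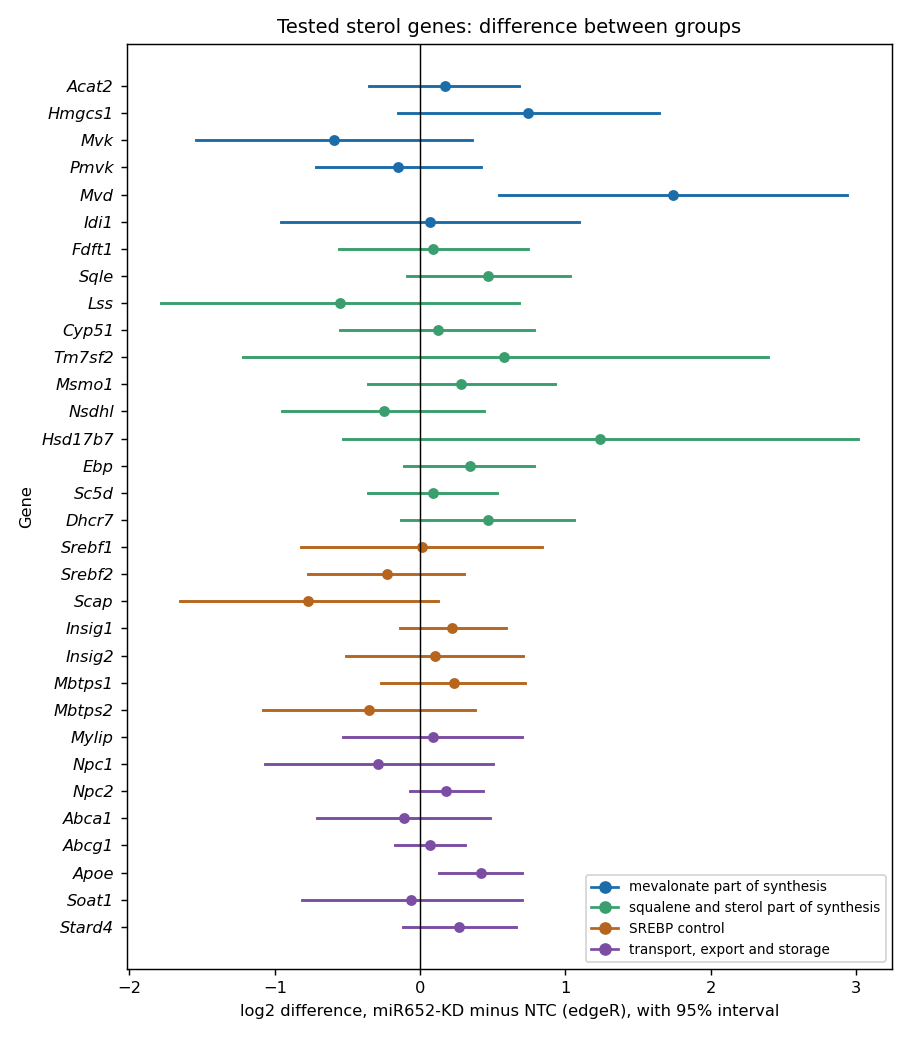
Log2 difference between miR652-KD and NTC libraries (x axis) for the 32 tested sterol genes (y axis), coloured by role. Bars are 95% intervals derived from edgeR's test statistic. The intervals of Mvd (0.54 to 2.94) and Apoe (0.13 to 0.70) lie above 0, and the other 30 span it.

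In the first steps of synthesis, from acetyl-CoA to farnesyl diphosphate, 4 of 6 tested enzymes had a log2 difference above 0 and 2 below, with a median of 0.12. Mvd (ENSMUSG00000006517.5, chr8:122433601-122443422, minus strand, mm10) encodes mevalonate diphosphate decarboxylase, which makes isopentenyl diphosphate, the building block of all isoprenoids. Its promoter carries a pair of CCAAT boxes, the motif bound by NF-Y, a factor known to act beside SREBPs. Such a box is not particular to Mvd: 14 of 15 synthesis genes with a RefSeq promoter held 1 or more, against 42.92% of tested genes. The boxes are shown because Mvd was the gene whose groups did not overlap. Both read in the direction of Mvd transcription, with the box in capitals. The first (RefSeq promoter, GRCm38.p6, chr8:122443468-122443492, minus strand) holds the box on the opposite strand, 60 bases before the start, and the second (chr8:122443435-122443459, minus strand) holds it on the same strand, 27 bases before the start.
Mvd upstream box: cctgtcgcctATTGGacagcacggg
Mvd proximal box: ggccagcgggCCAATcatatggcag
Mvd stood at 1.61, 5.28, 9.78 and 5.26 CPM in NTC 1 to 4 and at 11.1, 21.3, 17.6 and 23.5 CPM in miR652-KD 1 to 4. The lowest miR652-KD library, replicate 1, was above the highest NTC library, replicate 3, and NTC 1 was the lowest of all. The log2 difference was 1.74 (SE 0.54, 95% interval 0.54 to 2.94, edgeR adjusted p = 0.764), which does not pass the threshold. It lay between 1.43 and 2.18 with each library left out in turn. Without NTC 3 and NTC 4, the libraries of highest neutrophil RNA, it was 2.40.

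Hmgcs1 (ENSMUSG00000093930.2, chr13:119690379-119708260, plus strand), the cytosolic HMG-CoA synthase, is a classical SREBP target. Its promoter was the only one among the 27 sterol genes with a RefSeq promoter to hold the sterol regulatory element TCACNCCAC, searched on both strands from 250 bases before to 50 after the start. Genes without such a promoter, among them Sqle, Fdft1 and Fdps, were not searched. The Hmgcs1 element, in capitals, begins 137 bases before the RefSeq start (chr13:119690204-119690232, plus strand, GRCm38.p6).
Hmgcs1 element: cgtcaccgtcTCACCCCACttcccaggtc
Hmgcs1 stood at 15.3, 10.3, 12.1 and 33.5 CPM in NTC 1 to 4 and at 37.2, 30.5, 19.7 and 31.5 CPM in miR652-KD 1 to 4. NTC 4 lay inside the range of the miR652-KD libraries, and the other 3 NTC libraries lay below all of them. The log2 difference was 0.74 (SE 0.40, 95% interval -0.15 to 1.64, edgeR adjusted p = 0.893). Without NTC 4 it was 1.26, with an edgeR adjusted p of 0.875, so this library moved the value but not the call.

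The other enzymes from acetyl-CoA to farnesyl diphosphate overlapped between groups. Acat2, which joins acetyl-CoA molecules, was with Pmvk the most abundant of them per length (23.2 and 25.1 CPM per kb of annotated exons), and its log2 difference was 0.17 (SE 0.23). Mvk, mevalonate kinase, ranged from 7.20 to 20.3 CPM in NTC and from 8.04 to 11 in miR652-KD, with a difference of -0.59 (SE 0.43, 95% interval -1.54 to 0.36). Pmvk, which adds the second phosphate to mevalonate, differed by -0.15 (SE 0.26). Idi1, which isomerises isopentenyl diphosphate, differed by 0.07 (SE 0.46). Fdps, farnesyl diphosphate synthase, did not pass the filter, with 46, 0, 11 and 1 counts in NTC 1 to 4 and 9, 10, 1 and 16 in miR652-KD 1 to 4. Of the 1382 bases of its longest coding transcript, 1124 (81.3%) also lie in exons of the gene model Gm43738 on the same strand, which held 12 counts, all in miR652-KD 2. The part of this shared sequence in the low count of Fdps was not tested.

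The squalene and sterol part of the pathway gave 9 of 11 enzymes above 0 and 2 below, with a median log2 difference of 0.28, and all 11 intervals spanned 0. Sqle, squalene epoxidase, which is a rate-controlling oxygenase of the pathway, stood at 45.9, 45.7, 32.3 and 35.7 CPM in NTC 1 to 4 and at 56.6, 71.8, 59.9 and 33 CPM in miR652-KD 1 to 4. The miR652-KD libraries 1 to 3 were above every NTC library, and miR652-KD 4 was below all but NTC 3. Its log2 difference was 0.47 (SE 0.25, 95% interval -0.09 to 1.03, edgeR adjusted p = 0.890). Dhcr7, the reductase of the last step to cholesterol, differed by 0.47 (SE 0.27). Ebp, a sterol isomerase, had the highest level per length of the 18 synthesis genes (27.4 CPM per kb) and differed by 0.34 (SE 0.20). Msmo1, the oxidase that acts on methyl groups after Cyp51, differed by 0.28 (SE 0.29), and Cyp51, the lanosterol demethylase, by 0.12 (SE 0.30). For Fdft1, squalene synthase, and Sc5d, lathosterol desaturase, the difference was 0.09 (SE 0.29 and 0.20). Nsdhl, a sterol dehydrogenase, had the other value below 0 beside Lss, at -0.25 (SE 0.31).

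Among the tested synthesis enzymes, the ratio of the highest to the lowest library was largest for Hsd17b7, Mvd, Tm7sf2 and Lss. Hsd17b7, the ketosteroid reductase of the pathway, stood at 9.62, 9.42, 13.3 and 0.615 CPM in NTC 1 to 4 and at 8.11, 37.5, 24.2 and 8.31 CPM in miR652-KD 1 to 4, a range of 60.9-fold. NTC 4 was lowest and miR652-KD 2 and 3 were highest, with the other libraries between 8.11 and 13.3 CPM. Its log2 difference was 1.24, with an interval from -0.53 to 3.01, and it was 0.72 without miR652-KD 2. Tm7sf2, a sterol reductase, had the lowest level per kb of annotated exons among the tested sterol genes (1.33 CPM per kb). Those exons cover 4403 bases, against 1471 in its longest coding transcript, so this rank depends on the annotation. Tm7sf2 stood at 1.41, 4.28, 8.59 and 4.44 CPM in NTC 1 to 4 and at 15.9, 3.53, 1.81 and 6.75 CPM in miR652-KD 1 to 4. The highest library was miR652-KD 1 and the lowest was NTC 1, while the rest were interleaved. Its difference was 0.58 (95% interval -1.22 to 2.39), and -0.21 without miR652-KD 1. Lss, lanosterol synthase, stood at 33.7, 42.8, 9.96 and 8.20 CPM in NTC 1 to 4 and at 13.1, 24.4, 17.1 and 9.98 CPM in miR652-KD 1 to 4. Its NTC libraries split into 2 high and 2 low ones, the miR652-KD libraries lay between, and the difference was -0.55 (95% interval -1.78 to 0.68), and -0.07 without NTC 2.

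Over all 17 tested synthesis genes, 13 (76.5%) had a difference above 0 and 4 below, with a median of 0.17. The value depended on single libraries: it was 0.08 without NTC 1 and 0.36 without NTC 3. NTC 1 was the lowest of the 8 libraries for 6 of the 17 genes and NTC 4 for 4, and neither was the highest for any. NTC 1 also stood apart in its share of reads outside annotated genes, 16.94% against 9.69% to 11.35% in the other libraries. The part of this in its values was not tested. NTC 2 was the highest for 4 genes, NTC 3 for 3, miR652-KD 1 for 3 and miR652-KD 2 for 4. No synthesis gene was lowest in miR652-KD 1, 2 or 4. Summed over the 18 genes, synthesis transcripts made up 459, 565, 583 and 477 CPM in NTC 1 to 4 and 615, 681, 556 and 578 CPM in miR652-KD 1 to 4. The groups overlapped through NTC 2 and NTC 3. Cell cycle genes leaned the same way between groups. Of 18 tested genes of G2 and M phase, 17 had a difference above 0 (median 0.62, 0 past the threshold), as had 13 of 15 genes of S phase (median 0.26). Of the 18, 8 (44.4%) were at an unadjusted edgeR p below 0.05, against 5.99% of all tested genes. By library, the summed G2 and M level was lowest in replicate 1 of NTC (670 CPM) and highest in replicate 3 (1076), as was the synthesis sum. Within miR652-KD, replicate 3 had the highest G2 and M sum (1876) and the lowest synthesis sum. Replicate 1 had the lowest G2 and M sum (853), with a synthesis sum of 615. The part of cell cycle genes in the synthesis values was not tested.

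**Figure D2:**
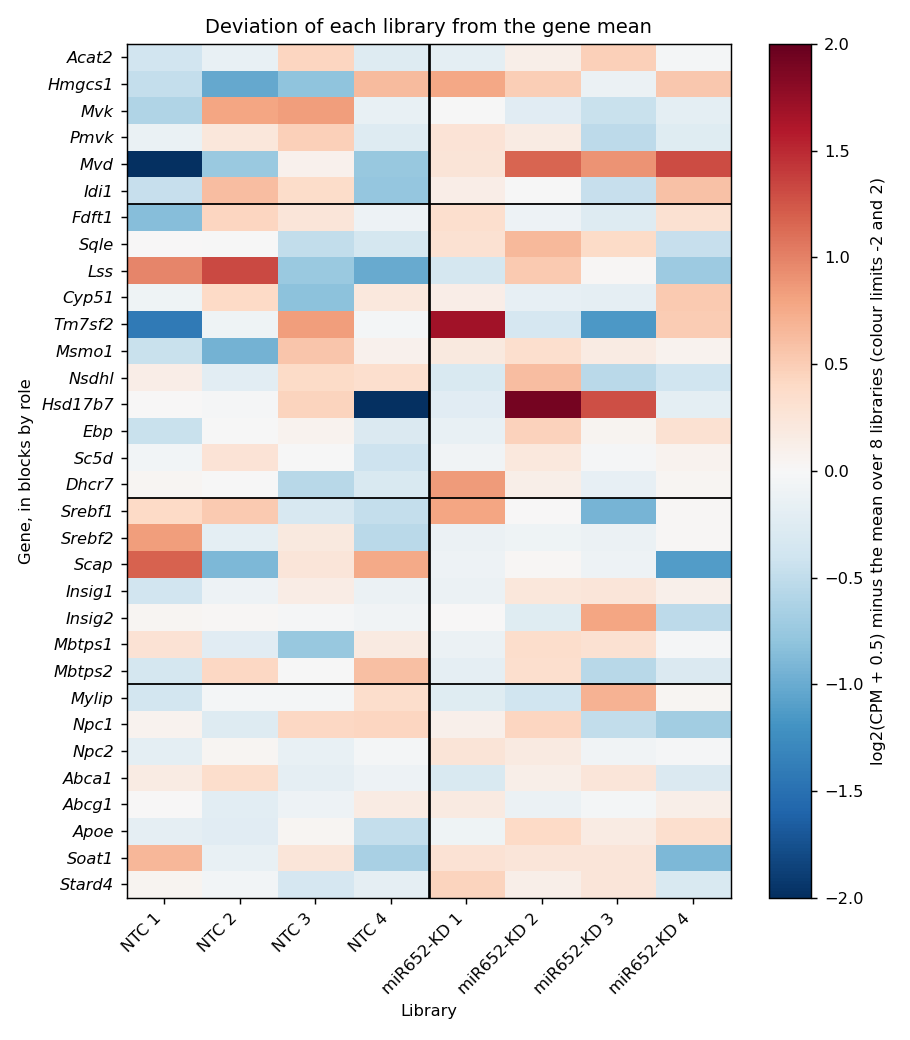
Deviation of each library (columns) from the mean over 8 libraries, as log2(CPM + 0.5), for the 32 tested sterol genes (rows, in blocks by role); red is above and blue below the mean, with colours limited at -2 and 2. NTC 1 is lowest for 6 of the 17 synthesis genes, and the Mvd row is the only one with all miR652-KD libraries above all NTC libraries.

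The 7 SREBP control genes, which sense sterols and activate SREBPs, had 4 differences above 0 and 3 below, with a median log2 difference of 0.01. Srebf2 (ENSMUSG00000022463.8, chr15:82147181-82205379, plus strand) encodes the SREBP that chiefly drives cholesterol synthesis. It stood at 322, 157, 206 and 123 CPM in NTC 1 to 4 and at 165, 168, 165 and 182 CPM in miR652-KD 1 to 4. The miR652-KD libraries lay close together, with a coefficient of variation of 4.83%, inside the NTC range, whose coefficient was 43.1%. The log2 difference was -0.23 (SE 0.24, 95% interval -0.77 to 0.30, edgeR adjusted p = 0.995), and it was 0.06 without NTC 1. Srebf1 (ENSMUSG00000020538.15, chr11:60199089-60222581, minus strand), whose products act more on fatty acid genes, stood at 51.9, 56.4, 31.1 and 27.9 CPM in NTC 1 to 4 and at 68.2, 39.2, 20.3 and 39.9 CPM in miR652-KD 1 to 4. Both its highest and its lowest library were miR652-KD ones, and the difference was 0.01 (SE 0.37, 95% interval -0.82 to 0.84, edgeR adjusted p = 0.999). Per kb of exon, Srebf2 was above Srebf1 in 8 of 8 libraries, by 1.90 to 6.36-fold (median 3.51).

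The Insig proteins retain Scap in the endoplasmic reticulum, and Insig1 is itself an SREBP target. Insig1 stood at 57.6, 69.6, 83.1 and 69.3 CPM in NTC 1 to 4 and at 68.9, 88.2, 88.8 and 80.8 CPM in miR652-KD 1 to 4. The groups overlapped, with NTC 1 lowest, and the log2 difference was 0.22 (SE 0.16, 95% interval -0.14 to 0.59, edgeR adjusted p = 0.965). Insig2 stood at 43.9, 43.4, 41.8 and 40.5 CPM in NTC 1 to 4 and at 42.9, 35.9, 73.7 and 29.4 CPM in miR652-KD 1 to 4. Here the NTC libraries were the close ones (coefficient of variation 3.70% against 43.1%), and miR652-KD 3 was high. The difference was 0.10 (95% interval -0.51 to 0.71), and -0.22 without miR652-KD 3. Per kb of exon, Insig1 was above Insig2 in 8 of 8 libraries, by 1.35 to 3.09-fold.

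Scap had the lowest difference of all 32 sterol genes. It stood at 133, 31.0, 69.1 and 99.2 CPM in NTC 1 to 4 and at 54.2, 59.0, 53.9 and 26.6 CPM in miR652-KD 1 to 4. NTC 1 and NTC 4 were highest, but NTC 2 was below 3 of the miR652-KD libraries. The log2 difference was -0.77 (SE 0.40, 95% interval -1.65 to 0.12, edgeR adjusted p = 0.882). It was -0.46 without NTC 1 and -1.03 without NTC 2, neither past the threshold. The proteases that cut SREBPs in the Golgi, Mbtps1 and Mbtps2, differed by 0.23 (SE 0.22) and -0.35 (SE 0.33). Per kb, Mbtps1 was above Mbtps2 in 8 of 8 libraries, by 2.76 to 8.53-fold.

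**Figure D3:**
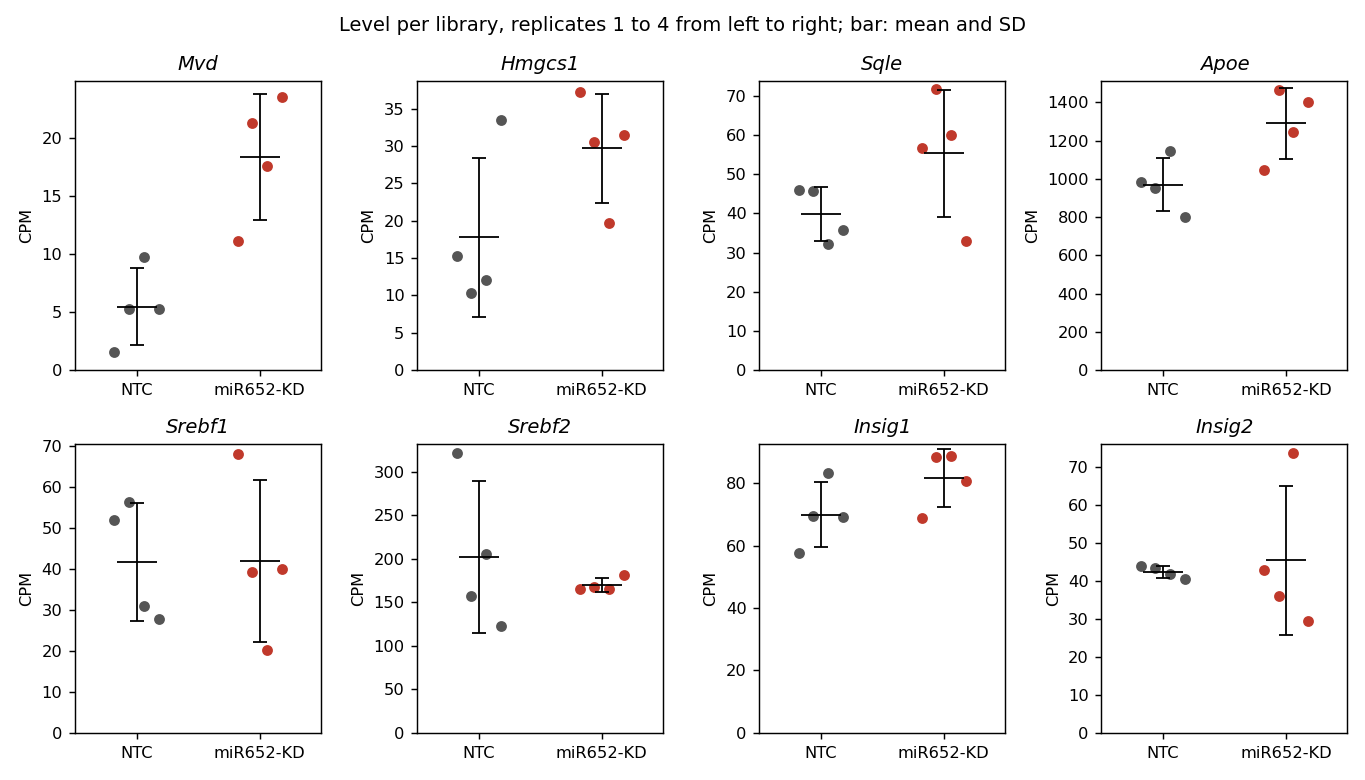
Level in CPM (y axis, from 0) of Mvd, Hmgcs1, Sqle, Apoe, Srebf1, Srebf2, Insig1 and Insig2 in each library, replicates 1 to 4 from left to right within a group, with the mean and SD of 4 libraries. The Mvd groups are separate (at most 9.78 CPM in NTC, at least 11.1 in miR652-KD), and those of the other 7 genes overlap.

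Of the 8 transport, export and storage genes, 5 had a log2 difference above 0 and 3 below, with a median of 0.08, and 7 of the 8 intervals lay within a 2-fold difference either way. Apoe (ENSMUSG00000002985.16, chr7:19696109-19699188, minus strand), the apolipoprotein that accepts exported cholesterol, had the highest level per length of the 33 genes, 529 CPM per kb. It stood at 982, 954, 1146 and 802 CPM in NTC 1 to 4 and at 1048, 1466, 1248 and 1405 CPM in miR652-KD 1 to 4. The groups overlapped only because NTC 3 was above miR652-KD 1. The log2 difference was 0.42 (SE 0.13, 95% interval 0.13 to 0.70, edgeR adjusted p = 0.766), and it lay between 0.34 and 0.51 with each library left out in turn. Apoe does not pass the threshold, and without NTC 3 and NTC 4 its difference was 0.43.

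Apoe is also abundant in macrophages, so markers of those cells are given beside it. Of 12 macrophage and dendritic markers, 6 were tested, and 3 of these had a difference above 0. Their summed level was 708 to 2299 CPM in NTC and 812 to 1020 in miR652-KD, and was largely Lyz2, which neutrophils also express. C1qa, C1qb and C1qc, defining genes of tissue macrophages, were at 0 in NTC 1, where Apoe stood at 982 CPM. These C1q genes were highest in NTC 4, where Apoe was lowest (802 CPM). The log2 difference was 0.05 for C1qa, -0.54 for C1qb and -0.57 for C1qc. It was -0.66 for Lyz2 and 0.40 for Vcam1, another marker of the list. The intervals of these 5 genes spanned 0. Csf1r, which did not pass the filter on low counts and was not tested, was at 0 in every NTC library and at 0.352 to 8.18 CPM in miR652-KD. Cd68, a lysosomal gene of macrophages, was at 14.5 to 31.8 CPM in NTC and at 39.2 to 60.1 in miR652-KD, without overlap (log2 difference 0.99, edgeR adjusted p = 0.681). The part of such cells in the Apoe difference was not tested.

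Abcg1 and Npc2 had the next highest levels per length, and both were among the most even sterol genes. Abcg1, which exports cholesterol to lipoproteins, stood at 403, 349, 375 and 452 CPM in NTC 1 to 4 and at 455, 369, 391 and 435 CPM in miR652-KD 1 to 4. The ranges lay nearly on each other, with a log2 difference of 0.07 (SE 0.11, 95% interval -0.17 to 0.31). Npc2, the soluble protein that binds cholesterol in lysosomes, stood at 257, 305, 265 and 286 CPM in NTC 1 to 4 and at 355, 334, 282 and 291 CPM in miR652-KD 1 to 4. The miR652-KD libraries 1 and 2 were above all others, and the difference was 0.18 (SE 0.11, 95% interval -0.07 to 0.43). Their partners were far lower per length in every library. Npc1, the membrane protein that takes cholesterol over from Npc2, stood at 16.7, 13.1, 21.2 and 21.5 CPM in NTC 1 to 4 and at 17.0, 21.6, 11.1 and 9.64 CPM in miR652-KD 1 to 4. The libraries were mixed, with miR652-KD 2 highest and miR652-KD 4 lowest, and the difference was -0.29 (SE 0.35). Npc2 exceeded Npc1 by 26.0 to 62.8-fold per kb, and Abcg1 exceeded Abca1, the exporter that loads nascent lipoproteins, by 18.9 to 39.2-fold. Abca1 differed by -0.11 (SE 0.27).

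The remaining genes of this group overlapped between groups. Stard4, a cytosolic sterol carrier, was at 72.6 to 95 CPM in NTC and 74.2 to 125 in miR652-KD, with a difference of 0.27 (SE 0.17). Mylip, the LXR-induced ligase that marks lipoprotein receptors for degradation, differed by 0.09 (SE 0.28), and Soat1, which esterifies cholesterol for storage, by -0.06 (SE 0.34). Summed over the 8 genes, the level was 1738 to 1983 CPM in NTC and 2097 to 2387 CPM in miR652-KD, without overlap. Apoe made up 46.1% to 61.4% of this sum, and without Apoe the groups overlapped (837 to 936 against 888 to 1049 CPM). The same held over all 33 genes, whose sum was 2710 to 3072 CPM in NTC and 3214 to 3602 CPM in miR652-KD, and 1884 to 2083 against 1933 to 2166 CPM without Apoe.

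**Figure D4:**
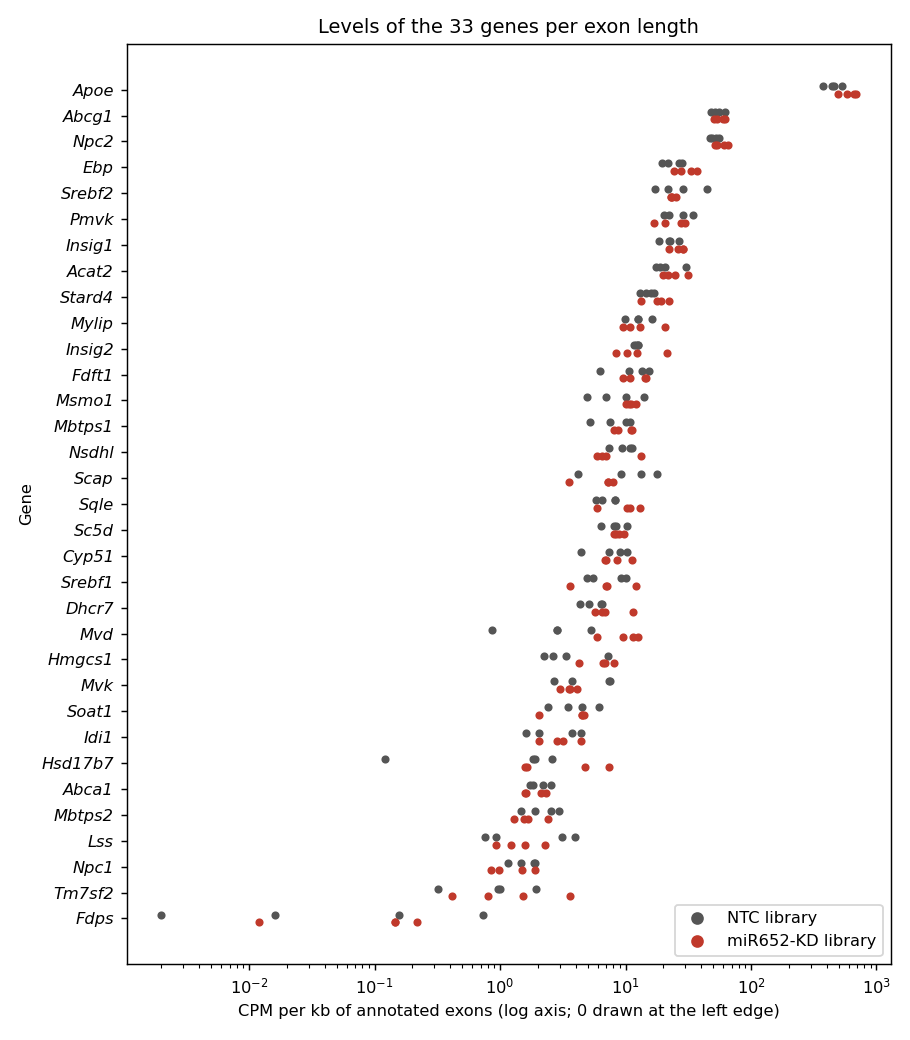
Level of the 33 sterol genes per kb of annotated exons (x axis, log scale, CPM per kb, 0 drawn at the left edge) in each NTC (grey) and miR652-KD (red) library, genes in order of their mean. Apoe (mean 529 CPM per kb), Abcg1 (55.3) and Npc2 (54.6) lead, and the tested genes end at Tm7sf2 (1.33), with Fdps (0.179) below.

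**Figure D5:**
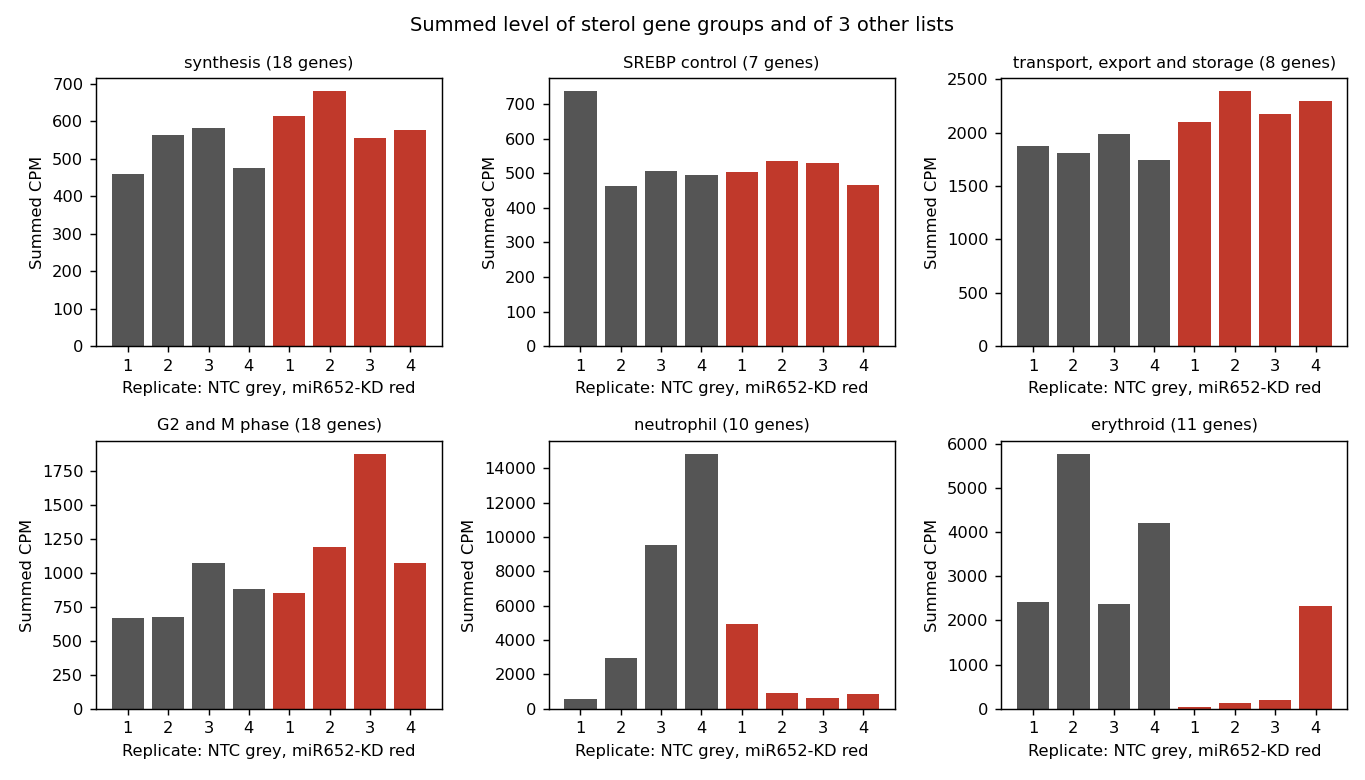
Summed CPM (y axes, from 0) in each library for the synthesis, SREBP control and transport groups, and for markers of G2 and M phase, neutrophils and erythroid cells; bars are single libraries. The transport sum does not overlap between groups (at most 1983 in NTC, at least 2097 in miR652-KD), the synthesis sum does, and neutrophil markers are highest in NTC 3 and NTC 4.

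The deposited counts could mix overlapping genes, because the strand setting of the counting is not given in the sources used here. Fdft1 shares 774 exon bases with Ctsb, an abundant lysosomal protease gene on the opposite strand, Scap shares 985 with an opposite-strand gene, and Hmgcs1 557 with an antisense gene. Reads from such stretches could have been counted for either gene or dropped as ambiguous. On the same strand, whatever the setting, Mbtps2 shares 2867 annotated exon bases with Yy2 and Tm7sf2 532 with Vps51. Of the longest coding transcripts, however, 0 bases of Mbtps2 and 1 of 1471 bases of Tm7sf2 lie in the other gene.

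Promoters were compared because synthesis genes are known to be driven together by SREBPs and NF-Y. RefSeq promoters were found for 27 of the 33 genes. The other 6, Fdps, Fdft1, Sqle, Npc1, Abcg1 and Stard4, were not searched, so whether they hold these motifs is not known here. The element TCACNCCAC was present in 1 of the 27, against 1.41% of 9878 tested genes with a promoter. CCAAT, searched on both strands, was present in 14 of 15 synthesis genes, all but Acat2, and in 21 of the 27 sterol genes, against 42.92% of tested genes. CACGTG, an E-box that SREBPs and other factors can bind, was present in 3 of 15 synthesis genes (Dhcr7, Hsd17b7 and Sc5d), and in 6 of the 27 with Abca1, Insig1 and Scap, against 11.85%. These are matches of letters in a window, and up to 3 promoters per gene were searched.

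The mature miR-652 arms are shown because the label names this miRNA, with the seed, bases 2 to 8, in capitals. They come from RefSeq (GRCm38.p6), at chrX:142739020-142739043 for the 5p arm and chrX:142739060-142739080 for the 3p arm, plus strand.
miR-652-5p: cAACCCUAggagggggugccauuc
miR-652-3p: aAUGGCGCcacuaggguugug
The longest annotated 3′ UTR of each of the 33 genes was searched for the match to each seed. The match to the 5p seed, TAGGGTT, was present in 3 of the 33 genes, against 8.45% of 11608 tested genes, and the match to the 3p seed, GCGCCAT, in 1, against 1.98%. The sites are shown as transcript sequence in DNA letters, with the match in capitals.
Abcg1 site: atgtccaaTAGGGTTattctgta
Mylip site: ttgaacttTAGGGTTggtttttt
Soat1 first site: agcaagttTAGGGTTtttttttg
Soat1 second site: cttcctcaTAGGGTTgctgcaga
Npc2 site: caatggtaGCGCCATgtgaagtg
The log2 differences of these 4 genes were 0.07 for Abcg1, 0.09 for Mylip, -0.06 for Soat1 and 0.18 for Npc2, and none passed the threshold. All 4 are transport or storage genes, and no synthesis or SREBP control gene held a match in that UTR. With so few matches, near the shares of all tested genes, their roles are not read as a result. The UTRs of these 4 genes also differ in length, from 1512 bases (Mylip) to 6534 (Soat1), and a longer one holds more chances of a match.

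Other genes of sterol and isoprenoid metabolism were read from the same fit, and 0 genes of these lists passed the threshold in either direction. Of 14 genes that use isoprenoids for prenylation, ubiquinone and dolichol, 9 were above 0 and 5 below (median log2 difference 0.07). Pdss2, which makes the ubiquinone side chain, and Fntb, a farnesyltransferase subunit, had the smallest p, with differences of 1.17 and 0.63 (edgeR adjusted p = 0.781 and 0.864). Among 13 fatty acid genes known as SREBP targets the split was 7 and 6 (median 0.03). Aacs, which activates acetoacetate for lipid synthesis, differed by 0.68 and Fasn, fatty acid synthase, by 0.50 (edgeR adjusted p = 0.779 and 0.832). Of 10 LXR receptors, partners and targets, 7 were tested, with 4 above 0 and 3 below (median 0.03), led by Rxrb (-0.41) and Lpcat3 (0.29).

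For uptake, lysosomal release and transfer, 12 of 13 genes were tested, with 5 above 0 and 7 below (median -0.12). Vldlr, a lipoprotein receptor of the LDL receptor family, stood at 130, 132, 106 and 201 CPM in NTC 1 to 4 and at 28.1, 90.2, 30.9 and 68.7 CPM in miR652-KD 1 to 4. Every miR652-KD library was below every NTC library, and the log2 difference was -1.38 (SE 0.38, edgeR adjusted p = 0.681), which does not pass the threshold. Tmem97, a sterol-regulated partner of Npc1, differed by 0.81. Of 13 genes of sterol-regulated degradation in the endoplasmic reticulum, 5 were above 0 and 8 below (median -0.05), led by Marchf6 (-0.47) and Aup1 (-0.27). Of 8 oxysterol and bile acid genes 5 were tested, with 1 above 0 and 4 below (median -0.65). Cyp27a1, the mitochondrial sterol hydroxylase, differed by -2.14 but ranged from 0.428 to 16.6 CPM within NTC, and Nceh1, a cholesteryl ester hydrolase, differed by -0.12. Ch25h and Hsd3b7 were at 0 in every library.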

How the data were processed

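Per the submitters' processing notes, reads were handled with HISAT2 2.1.0, HTSeq 0.11.2 and DESeq2 on mm10; for the annotation release and the strand setting, nothing is given in the sources used here. The authors deposited raw counts per gene, 1 table per library, and all 8 were used. Lines that name no gene were left out. Of these, no_feature, reads outside annotated genes, took 16.94% in NTC 1 and 9.69% to 11.35% in the other libraries. Ambiguous reads took 8.94% (NTC 1) to 12.28%. CPM was computed over all gene rows. Of 55487 gene IDs, 55394 matched GENCODE M21, which gave symbols, mm10 coordinates and exon lengths. A length joins all annotated exons of a gene and can exceed that of any transcript made. Ranks and ratios per length therefore depend on the annotation.

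The test was edgeR 4.0.16 (R 4.3.3) quasi-likelihood, robust, with TMM factors (0.981 to 1.03), filterByExpr at its defaults and Benjamini-Hochberg adjustment over 14360 genes, tested first on simulated data. Smart-seq2 has no molecular identifiers, so counts are not independent molecules. The members and lists were chosen with earlier results of these data known. All members are named, with values per library for those of unadjusted p below 0.05 or without overlap, Srebf1, Srebf2, Insig1, Insig2, and the 3 of highest and 3 of lowest tested level per length; Hmgcs1, Sqle, Scap, Hsd17b7 and Fdps were added after their values were seen. Of each of the 6 other pathway lists, the 2 tested genes of smallest p are named; markers of cell types and cell cycle were named after their values were seen. Alternatives were RLE, upper-quartile and library-size scaling, DESeq2 1.42.0, limma-voom (limma 3.58.1), dropping the filter, a stricter one (5 CPM in 4 libraries), a non-robust fit, the replicate block, and leaving out libraries. Other enzymes and receptors of the pathway were not analysed here.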

Additional observations from a re-analysis of the deposited data

Results flagged for a closer look

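In each group of 4 libraries, the highest or lowest value was set against the others by Dixon's test at the 95% level, over 64 groups of the 32 tested genes, where chance alone gives about 1 in 20; 3 groups passed. Nsdhl stood at 37.7 CPM in miR652-KD 2 against 16.8 to 19.8 in the other miR652-KD libraries. Scap stood at 26.6 CPM in miR652-KD 4 against 53.9 to 59.0 in the others. Soat1 stood at 19.9 CPM in miR652-KD 4 against 44.3 to 46.1 in the others.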

How the results depend on the processing

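No sterol gene passed the threshold under any setting run, with 2 to 5 at an unadjusted p below 0.05. With limma-voom these were 3 of 32, against 1036 of all 14360 tested genes. With the replicate block they were 3 of 32, against 733 of 14360. The count of 5 is given without such a share and is not read as a result. Over all genes, 6 passed in the edgeR fit, 130 with DESeq2, 0 with the replicate block (733 at an unadjusted p below 0.05), 0 without NTC 3 and 4 together (884) and 0 to 0 with single libraries left out (789 to 992); the cause was not tested. No pairing by replicate number was seen: same-numbered libraries correlated at -0.033 to -0.01 and others at -0.03 to 0.046, in deviations from the group mean. A weak shared effect could escape this check, and the labels do not say whether numbers pair libraries. Sterol genes without overlap numbered 1, and 1 to 3 with a library left out, where fewer samples make separation easier. The share over all tested genes, 2.35% higher and 2.15% lower in miR652-KD, was computed only with all 8 libraries. The counts with a library left out therefore have no background and are not read as a result. The median over the tested sterol genes stayed between 0.09 and 0.20. Of 575 single-gene values under all alternatives, 549 kept their direction. Those that turned, all from genes far from the threshold, were Insig2 (-0.02) and Mylip (-0.00) with limma-voom, Srebf1 (-0.05) with the replicate block, and, without NTC 3 and 4 together, Idi1, Cyp51 and Sc5d (each -0.06), Srebf1 (-0.36) and Npc1 (0.00). With single libraries left out, differences ranged from -0.15 to 0.35 for Idi1, -0.12 to 0.28 for Fdft1, -0.40 to 0.06 for Srebf2, -0.18 to 0.23 for Mylip, -0.23 to 0.18 for Soat1, -0.22 to 0.01 for Abca1, -0.08 to 0.30 for Cyp51, -0.33 to 0.24 for Srebf1, -0.01 to 0.22 for Sc5d, -0.21 to 1.05 for Tm7sf2 and -0.22 to 0.26 for Insig2. The SREBP control median ranged from -0.22 to 0.13 and the transport median from -0.01 to 0.18. With 4 libraries a group, a 2-fold difference stayed within the interval of 12 of the 32 genes.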
